A study of Mus musculus with 6 samples.

Results

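The 38 genes described here encode the enzymes and transporters of glycolysis, the oxygen-sensing machinery of the cell, and proteins whose genes are known to be induced by hypoxia. They were chosen by name, with earlier results of these data known, and 35 were found among the 19938 genes measured on the arrays. Each was represented by the probe set with exactly 1 gene symbol and the highest mean over the 6 arrays. The other 3, Gpi1, Gapdh and Eno1, are not analysed here; Gapdh was named only in 25 probe sets that carry several gene symbols. No gene was left out for a low signal. Signals are log2 gene-level values, so a difference of 1 is a 2-fold change, and levels of different probe sets are not compared.

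The samples were sorted mouse bone marrow cells with the surface profile cKit+Sca1+Lin-, called KSL cells, the fraction that contains haematopoietic stem cells and early progenitors. The 3 DKO samples came from mice with the genotype Runx1 fl/fl, Runx3 fl/fl and Mx1-Cre+, and the 3 WT samples from littermates with the genotype Runx1 fl/fl, Runx3 fl/fl and Mx1-Cre-, so the floxed alleles were present in all 6. The strain background was C57BL/6, after at least 3 generations of backcrossing. Per the labels' protocols, mice were given 600 µg of pIpC, a double-stranded RNA analogue, on 7 alternate days from 4 weeks of age, and the same protocol text stands on every sample, although the sample descriptions call the cells untreated. Mx1-Cre is driven by an interferon-responsive promoter and is not restricted to KSL cells, and the deletion and the transgene cannot be told apart. Each WT sample was a pool of 3 mice per the series' design text; pooling of the DKO samples is not given there, and the same text counts 6 mice in all.

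Glycolysis splits glucose into pyruvate, which is either reduced to lactate in the cytosol or burned in mitochondria. In low oxygen, the alpha subunits of the hypoxia-inducible factors (HIF) escape hydroxylation by the Egln enzymes and destruction by the Vhl ubiquitin ligase, pair with Arnt and switch on glucose transporters, glycolytic enzymes and other targets. Stem cells of the bone marrow are known for a low-oxygen environment and for a metabolism that leans on glycolysis.

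The labels were set against the arrays first. Runx1 signal was 9.22, 9.37 and 9.28 in DKO samples, against 8.48, 8.53 and 8.38 in WT samples, a difference of 0.82 (adjusted p = 0.000427), and Runx3 signal was 7.38 ± 0.04 in DKO and 7.53 ± 0.06 in WT (SD, n = 3 each, adjusted p = 0.253). Probes for exons that remain can still give signal, so these values do not check the deletion, and DKO means the samples labelled so. The gate gene Kit lay between percentile 96.8 and 99 of all genes on every array and rose by 0.73 (adjusted p = 0.00289); the other gate gene, Ly6a, is not analysed here. The wider list of gate, stem cell and progenitor genes found held Kit, Slamf1, Cd34, Flt3, Cd48, Ptprc, Thy1 and Procr, which do not all mark stem cells. Of these 8, 4 rose and 2 fell, where 9.71% of all genes rose and 7.69% fell (limma, Benjamini-Hochberg adjusted p under 0.05 over all genes). Their differences ran from -1.32 for Flt3 to 1.95 for Slamf1, and their summed linear signals were 5840 to 6552 in DKO and 4488 to 4568 in WT. A large part of that gap came from Cd48, with a mean log2 signal of 10.72 in DKO and 9.26 in WT. Slamf1 lay anywhere between percentile 28.4 and 78.2 over the 6 arrays.

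Some markers of mature cell types differed with the genotype, and their signals were summed on the linear scale. Their counts stand beside the 9.71% of all genes that rose and the 7.69% that fell. Of 11 mast cell and basophil markers 4 rose and 3 fell, with a median difference of 0.07, and 4 were below the lower quartile of all genes. Their sums were 2915 to 3534 in DKO and 821 to 911 in WT. Most of this gap came from Cpa3, with a mean log2 signal of 10.96 in DKO and 7.54 in WT. Of 8 megakaryocyte and platelet markers 4 rose and 0 fell, with sums of 1531 to 2279 in DKO and 1006 to 1099 in WT. Of 12 neutrophil and monocyte markers 0 rose and 3 fell, with sums of 2883 to 4249 in DKO and 4738 to 5059 in WT, and 2 were below the lower quartile. Of 8 erythroid markers 0 rose and 2 fell, with a median of -0.05 and sums of 744 to 998 in DKO and 1130 to 1584 in WT. Most of that gap came from Car1, with a mean log2 signal of 7.355 in DKO and 9.374 in WT. Of 10 B, T and NK cell markers only Nkg7 was called, with a difference of -2.02, and 6 were below the lower quartile; the sums were 482 to 500 in DKO and 871 to 952 in WT. Of 10 macrophage and dendritic cell markers 1 rose, with sums of 578 to 980 in DKO and 583 to 589 in WT, and of 11 endothelial and stromal markers 1 fell, with sums of 816 to 870 in DKO and 750 to 834 in WT. Their part in the differences given here was not tested, and in such bulk samples fewer cells of a type and less RNA per cell cannot be told apart.

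Of the 35 genes, 11 fell in DKO cells, which is 31.4% of them, while 7.69% of all genes tested fell in the same test. Another 4 rose, which is 11.4%, close to the 9.71% of all genes that rose, and 20 did not pass the test. The falls were Ak4, Ldhb, Pkm, Egln3, Pfkm, Tpi1, Bnip3l, Hif1an, Vegfa, Pfkl and Aldoc, and the rises were Hk3, Slc2a3, Hif1a and Aldoa. Falls outnumbered rises among the glycolysis genes of this list, where 5 of the 13 found fell (38.5%) and 2 rose (15.4%). Among these falls, the calls of Pfkm, Pfkl and Aldoc were lost in 6, 8 and 9 of 18 alternatives. Of 37 other glycolysis and pyruvate genes, described below, 6 rose (16.2%) and 2 fell (5.41%). The median difference of the 35 was -0.14, beside -0.04 over all genes, and the median absolute difference was 0.26, beside 0.15. With the probe sets used, Ak4 and Ldhb fell at least 2-fold, beside 0.552% of all genes. A second Ldhb probe set fell 1.94-fold. At least 2-fold rises were seen in 0 of the 35, beside 1.11% of all genes. All 3 DKO values lay below all 3 WT values in 15 of the 35 genes, beside 19.6% of all genes, and above them in 5, beside 16.2%. The count of falls was 6, 7 and 5 without DKO replicates 1, 2 and 3 and 6 without WT replicate 3, and the count of rises was 2 without DKO replicate 2 or 3. With quantile normalization 2 of the 35 rose and 10 fell, and with median centring 4 rose and 8 fell, where 11.3% of all genes rose and 5.62% fell. Without the dimmest 50% of genes 31.2% of the 32 left fell, beside 12.7% of all genes, and 12.5% rose, beside 20%. The calls of 6 genes (Ak4, Ldhb, Pkm, Egln3, Hk3 and Slc2a3) were kept in each of the 18 alternative analyses, and all 15 called genes kept their direction in them.

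**Figure D1:**
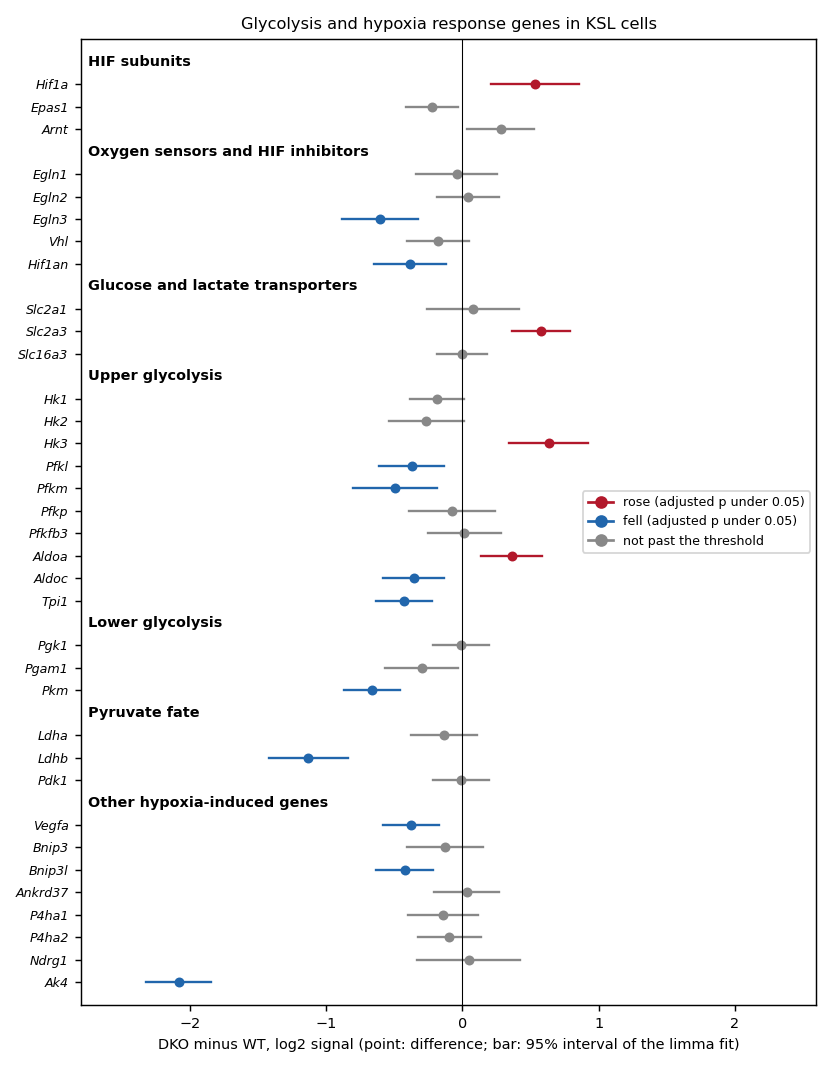
Differences between DKO and WT in log2 signal for the 35 genes, grouped by role, with points for the fitted difference and bars for its 95% interval. Ak4 at -2.09 and Ldhb at -1.13 lie furthest to the left, and the 4 rises lie between 0.36 and 0.63.

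The largest change was that of Ak4, a kinase of the mitochondrial matrix that passes phosphate between nucleotides and whose gene is a known HIF target. Ak4 signal was 4.94, 4.99 and 5.28 in DKO samples, against 7.16, 7.12 and 7.18 in WT samples. The groups are far apart, and the WT samples are almost level with each other. The fitted difference was -2.09, which is 4.24-fold lower in DKO (SE 0.105, 95% interval -2.32 to -1.85, adjusted p = 1.04e-05). At a DKO mean of 5.07 the signal is close to the lower quartile of all genes, which was 4.89 to 4.97 on the 6 arrays, so the size of the fall is uncertain while its direction was the same in all alternatives. A second probe set annotated to Ak4 averaged 5.29 in DKO and 6.86 in WT and fell by 1.57 (2.97-fold, adjusted p = 5.15e-05 in the fit of all probe sets). Of 5 other adenylate kinase genes measured, 0 rose and 0 fell, with differences between -0.28 and 0.33; without WT replicate 1, 1 rose and 1 fell. The promoter windows of Ak4 are shown because they carry the core letters of the hypoxia response element, the DNA word HIF binds. They come from RefSeq (GRCm38.p6), run from 250 bases before to 50 bases after an annotated start on the plus strand, and lie at chr4:101419039-101419338 and chr4:101419453-101419752. Capitals mark ACGTG or GCGTG on either strand. The other 2 listed starts of the gene have windows that overlap the first.
Ak4 promoter, first window: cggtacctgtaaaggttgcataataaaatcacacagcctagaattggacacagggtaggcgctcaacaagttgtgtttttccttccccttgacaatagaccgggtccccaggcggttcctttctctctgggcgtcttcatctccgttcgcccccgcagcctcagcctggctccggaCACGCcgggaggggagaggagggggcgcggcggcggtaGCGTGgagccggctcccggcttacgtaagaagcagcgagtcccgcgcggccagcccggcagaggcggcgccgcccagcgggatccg
Ak4 promoter, second window: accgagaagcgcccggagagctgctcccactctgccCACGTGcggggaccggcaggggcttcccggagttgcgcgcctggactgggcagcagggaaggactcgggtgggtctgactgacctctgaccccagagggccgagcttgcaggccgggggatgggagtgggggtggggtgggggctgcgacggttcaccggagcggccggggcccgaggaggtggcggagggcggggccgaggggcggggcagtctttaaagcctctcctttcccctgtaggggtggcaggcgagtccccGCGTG

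Among the HIF subunits, Hif1a rose, and Epas1 and Arnt did not pass the test. Hif1a, the oxygen-regulated alpha subunit best known for switching on glycolysis, had 7.43, 7.89 and 7.68 in DKO samples, against 6.89, 7.17 and 7.33 in WT samples. The lowest DKO value is only just above the highest WT value. The difference was 0.53 (SE 0.144, adjusted p = 0.0309), and the call was lost without DKO replicate 2 (0.42, adjusted p = 0.108) or 3 (0.0955), without WT replicate 1 (0.0788) or 2 (0.0555), with quantile normalization (0.054) and with the trend over gene span and signal removed (0.0703), 0.0119 to 0.108 over its alternatives. Epas1, which encodes the other main alpha subunit, had 5.77, 5.87 and 5.77 in DKO, against 6.08, 5.97 and 6.03 in WT. Its values do not overlap between the groups, with all DKO samples lower, but the difference of -0.22 did not pass (95% interval -0.41 to -0.04, adjusted p = 0.102). Arnt, the shared beta subunit, had 7.89, 8.05 and 7.93 in DKO, against 7.46, 7.78 and 7.79 in WT, with all DKO samples higher, but the 0.28 between the means did not pass (95% interval 0.04 to 0.53, adjusted p = 0.115).

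Of the 5 genes whose products restrain HIF, 2 fell in DKO cells and 0 rose, beside 7.69% and 9.71% of all genes. Egln3, an oxygen-dependent prolyl hydroxylase that is itself induced by HIF, had 6.88, 7.23 and 7.35 in DKO samples, against 7.72, 7.86 and 7.70 in WT samples. Every DKO value is below every WT value, and DKO replicate 1 is the lowest. Egln3 fell by 0.61 on the log2 scale, 1.52-fold (SE 0.125, adjusted p = 0.0097). Hif1an, the asparaginyl hydroxylase that blocks HIF from binding its coactivators, had 5.33, 5.64 and 5.48 in DKO and 5.95, 5.67 and 5.99 in WT. Its groups almost touch at DKO replicate 2 and WT replicate 2. The fall of 0.39 was just past the threshold (adjusted p = 0.0491), and 10 of 17 alternatives lost the call, among them all 3 other normalizations (adjusted p = 0.0674 to 0.0841) and the analyses without DKO replicate 1 (0.17), DKO replicate 3 (0.132), WT replicate 1 (0.112) or WT replicate 3 (0.142), 0.0213 to 0.17 over its alternatives. The related hydroxylases Egln1 and Egln2 differed by -0.04 (95% interval -0.34 to 0.26) and 0.04 (-0.19 to 0.27), and neither passed. Vhl, the substrate-binding part of the ligase that destroys HIF, was lower in all DKO samples without passing (-0.18, 95% interval -0.41 to 0.05, adjusted p = 0.272). The promoter window of Egln3, at chr12:54203825-54204124 on the minus strand, holds ACGTG once, shown in capitals.
Egln3 promoter: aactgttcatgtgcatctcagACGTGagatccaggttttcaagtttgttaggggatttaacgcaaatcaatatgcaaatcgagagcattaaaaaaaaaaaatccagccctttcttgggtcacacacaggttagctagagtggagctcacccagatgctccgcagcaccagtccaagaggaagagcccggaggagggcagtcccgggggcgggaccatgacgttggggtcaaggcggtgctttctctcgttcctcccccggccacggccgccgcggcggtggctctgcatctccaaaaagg

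Of the sugar and lactate transporters, Slc2a3 rose. This high-affinity glucose transporter had 7.33, 7.53 and 7.38 in DKO samples, against 6.82, 6.76 and 6.94 in WT samples. The groups are separated by more than the range of either. The rise was 0.57, 1.49-fold (SE 0.095, adjusted p = 0.00339). Slc2a1, the glucose transporter of most cell types, had 7.29, 7.30 and 7.33 in DKO, against 6.84, 7.36 and 7.48 in WT. WT replicate 1 stands below the other WT samples, and the difference of 0.08 did not pass (95% interval -0.26 to 0.42). Slc16a3, which exports lactate, was at 6.46 ± 0.04 in DKO and 6.46 ± 0.04 in WT (SD, n = 3 each), a difference with a 95% interval of -0.18 to 0.18.

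Of the hexokinase genes, Hk3 rose. Hexokinases trap glucose in the cell as its phosphate, and Hk3, the form known from myeloid cells, had 7.67, 7.46 and 7.78 in DKO samples, against 6.83, 6.95 and 7.25 in WT samples. All DKO values are above all WT values. Hk3 rose by 0.63, 1.55-fold (SE 0.129, adjusted p = 0.009). Markers of myeloid cell types, given above, differed with the genotype too, but not in 1 direction. Neutrophil and monocyte markers had 0 rises and 3 falls of 12, mast cell and basophil markers 4 rises and 3 falls of 11. Megakaryocyte and platelet markers had 4 rises and 0 falls of 8. The part of these cell types in the rise of Hk3 was not tested. Hk2, the insulin- and HIF-responsive hexokinase, had 6.26, 6.11 and 6.14 in DKO and 6.16, 6.61 and 6.53 in WT. These overlap through WT replicate 1. Its difference of -0.26 did not pass (adjusted p = 0.184) and passed without that sample (-0.40, adjusted p = 0.0242, 0.0242 to 0.393 over its alternatives). The promoter window of Hk3 lies at chr13:55021336-55021635 on the minus strand. Among the 3 called rises with a window (Slc2a3 has none) it alone holds letters of the Runx binding word. Such letters also stood in 7 of 18 genes of the list that did not pass, and in 24.4% of protein-coding genes. Capitals mark ACGTG on the reverse strand first, then TGTGGT on the reverse and on the forward strand, where the last match begins at the base before the start.
Hk3 promoter: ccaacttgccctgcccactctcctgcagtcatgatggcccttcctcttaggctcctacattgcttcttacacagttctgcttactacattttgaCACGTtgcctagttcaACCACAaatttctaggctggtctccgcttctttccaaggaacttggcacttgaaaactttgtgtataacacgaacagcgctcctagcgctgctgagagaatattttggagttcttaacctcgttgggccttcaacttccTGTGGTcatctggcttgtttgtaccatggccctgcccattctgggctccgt

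Phosphofructokinase commits sugar to glycolysis, and 2 of its 3 subunit genes fell, beside 7.69% of all genes. Pfkm, the muscle-type subunit, had 6.72, 6.98 and 7.01 in DKO samples, against 7.68, 7.17 and 7.36 in WT samples, a difference of -0.50 (SE 0.138, adjusted p = 0.035). Pfkl, the liver-type subunit, had 6.36, 6.60 and 6.55 in DKO, against 6.83, 6.76 and 7.04 in WT, a difference of -0.37 (SE 0.107, adjusted p = 0.0407). In neither do the groups overlap, but both calls were fragile. Pfkm was lost without any 1 of the DKO samples or without WT replicate 1 or 3, and when replicate numbers were blocked (adjusted p up to 0.128, 0.0166 to 0.128 over its alternatives), and Pfkl was lost in the same cases and with median centring or cyclic loess (up to 0.149, 0.0261 to 0.149 over its alternatives). Pfkp, the platelet-type subunit, differed by -0.07 (95% interval -0.39 to 0.24), and Pfkfb3, which makes an activator of phosphofructokinase, by 0.01 (-0.25 to 0.28), and neither passed.

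Aldolase cuts the sugar into a pair of triose phosphates, and its genes Aldoa and Aldoc went opposite ways. Aldoa, the widely expressed form, had 9.30, 9.48 and 9.45 in DKO samples, against 9.11, 9.13 and 8.90 in WT samples, a rise of 0.36 (SE 0.099, adjusted p = 0.0336). Aldoc, the brain-type form, had 5.97, 5.87 and 5.97 in DKO, against 6.48, 6.17 and 6.23 in WT, a fall of 0.36 (SE 0.101, adjusted p = 0.0377). The groups do not overlap in either gene. The call of Aldoa was lost in 8 of 18 alternatives, namely quantile normalization (0.20, adjusted p = 0.211), cyclic loess (0.22, 0.152), the trend over span and signal removed (0.25, 0.109), a block on replicate numbers (0.0569), and the removal of WT replicate 3 (0.1) or any 1 of the DKO samples (0.0501 to 0.113), 0.0209 to 0.211 over its alternatives. That of Aldoc was lost in 9 of 18, including all 3 other normalizations (0.0599 to 0.0747) and the removal of any 1 of the DKO samples (0.0895 to 0.121), WT replicate 1 (0.089) or WT replicate 3 (0.0614), 0.0237 to 0.121 over its alternatives. Tpi1, which interconverts the trioses, had 8.89, 8.81 and 8.97 in DKO, against 9.37, 9.21 and 9.38 in WT. It fell by 0.43, with no overlap (SE 0.092, adjusted p = 0.0113), and missed the threshold only without DKO replicate 2 (adjusted p = 0.0503, 0.00381 to 0.0503 over its alternatives).

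Of the later enzymes, Pkm fell. Pkm makes pyruvate kinase, the enzyme of the last step, and had 8.86, 8.91 and 8.67 in DKO samples, against 9.49, 9.44 and 9.49 in WT samples. The WT samples sit within 0.1 of each other and above all DKO samples. Pkm fell by 0.66, 1.59-fold (SE 0.093, adjusted p = 0.00147). A gene-level signal does not separate its splice forms. Pgk1, which yields the first ATP of the pathway, differed by -0.01 (95% interval -0.21 to 0.19). Pgam1, the mutase after it, had 7.80, 7.59 and 7.81 in DKO, against 7.82, 8.23 and 8.04 in WT. All DKO values are lower, although DKO replicate 3 almost meets WT replicate 1. The difference of -0.30 did not pass (adjusted p = 0.124) but did with quantile normalization (-0.39, adjusted p = 0.0483), cyclic loess (-0.39, 0.0447) and without WT replicate 1 (-0.40, 0.0405), 0.0405 to 0.323 over its alternatives.

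At the branch after pyruvate, Ldhb fell and Ldha did not pass the test. Lactate dehydrogenase is a tetramer of the subunits made by these genes, and the form rich in the Ldhb subunit is the one of heart muscle and other tissues that use lactate. Ldhb signal was 5.65, 5.88 and 5.97 in DKO samples, against 6.73, 7.00 and 7.16 in WT samples. The gap between the groups is wider than the range within either. Ldhb fell by 1.13, 2.19-fold (SE 0.13, 95% interval -1.42 to -0.84, adjusted p = 0.000555). This probe set lies among neighbours of chromosome 19, while the gene lies on chromosome 6. A second Ldhb probe set, among neighbours of chromosome 6, averaged 5.13 in DKO and 6.09 in WT. It fell by 0.955 (1.94-fold, adjusted p = 0.00576 in the limma fit of all probe sets). Its DKO mean is close to the lower quartile of all genes (4.89 to 4.97), so the size of that fall is uncertain. Ldha had 9.11, 8.97 and 9.17 in DKO, against 9.06, 9.19 and 9.40 in WT. These overlap, and the difference was -0.14 (95% interval -0.38 to 0.11, adjusted p = 0.44). Pdk1, a kinase that restrains the burning of pyruvate in mitochondria and whose gene is a HIF target, differed by -0.01 (-0.22 to 0.20). Promoter windows of the lactate dehydrogenase genes are set side by side for their counts of the hypoxia letters. The Ldhb window holds them once, the first Ldha window 7 times and the second Ldha window 2 times. A link between these counts and the calls was not tested. The windows shown lie at chr6:142507908-142508207 on the minus strand for Ldhb and chr7:46845554-46845853 on the plus strand for Ldha (the first of 2 listed starts). Capitals mark ACGTG or GCGTG of either strand, where CACGTG counts once on each.
Ldhb promoter: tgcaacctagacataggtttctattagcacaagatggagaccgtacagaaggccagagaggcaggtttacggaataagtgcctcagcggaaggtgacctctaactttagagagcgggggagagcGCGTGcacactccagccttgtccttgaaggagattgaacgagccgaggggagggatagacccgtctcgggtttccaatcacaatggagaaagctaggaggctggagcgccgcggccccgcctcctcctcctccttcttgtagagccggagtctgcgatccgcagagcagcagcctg
Ldha promoter: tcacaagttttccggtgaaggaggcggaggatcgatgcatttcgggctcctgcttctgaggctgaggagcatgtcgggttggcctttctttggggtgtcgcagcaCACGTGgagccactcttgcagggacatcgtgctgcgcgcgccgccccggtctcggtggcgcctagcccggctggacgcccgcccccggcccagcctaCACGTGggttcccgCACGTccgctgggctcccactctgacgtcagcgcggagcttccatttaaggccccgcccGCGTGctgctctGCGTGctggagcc

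Of the 8 remaining genes known to be induced by hypoxia, 3 fell, Ak4 among them, and 0 rose, beside 7.69% and 9.71% of all genes. Among 34 further hypoxia-induced genes, described below, 5.88% fell and 11.8% rose. Vegfa, the growth factor of blood vessels, had 6.77, 6.94 and 6.86 in DKO samples, against 7.17, 7.20 and 7.33 in WT samples. It fell by 0.38 with no overlap (SE 0.091, adjusted p = 0.0193), and the call was lost without DKO replicate 1 (0.0813), DKO replicate 3 (0.0643) or WT replicate 3 (0.0618), 0.0115 to 0.0813 over its alternatives. Bnip3l, a receptor that marks mitochondria for removal, had 9.93, 9.88 and 9.83 in DKO, against 10.42, 10.18 and 10.31 in WT. It fell by 0.42 with no overlap (SE 0.093, adjusted p = 0.0128). Its paralog Bnip3 differed by -0.13 (95% interval -0.41 to 0.15), the collagen prolyl hydroxylase genes P4ha1 and P4ha2 by -0.14 and -0.10, Ankrd37 by 0.03 and Ndrg1 by 0.05, and none of these passed. In Ndrg1 the DKO samples ran from 7.266 to 7.998, the widest range within a group of any of the 35 genes, around the WT values of 7.46 to 7.72.

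**Figure D2:**
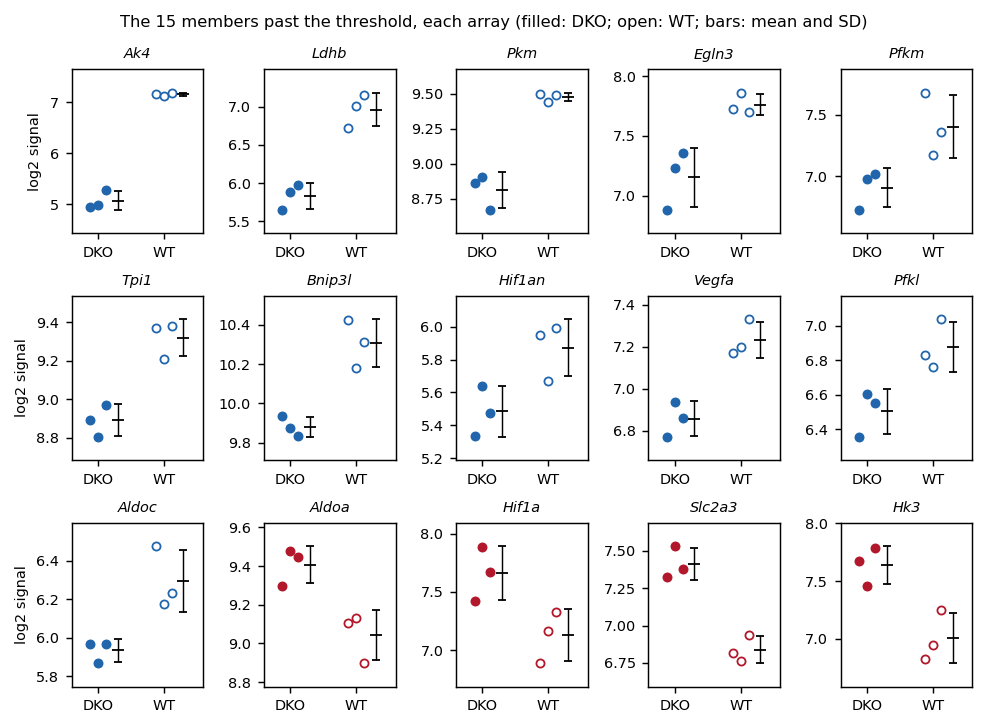
Log2 signal on each array for the 15 genes past the threshold, ordered from the largest fall to the largest rise, with filled points for DKO, open points for WT and bars for the mean and SD. In each gene the 3 DKO points lie wholly on 1 side of the 3 WT points, narrowly so in Hif1a and Hif1an.

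For 8 of the 35 genes the array has more than 1 probe set, and the choice between them matters because glycolytic genes are known for processed copies elsewhere in the genome. Probe set numbers follow the genome: for each of the 45 probe sets of these genes, 17 to 20 of the 20 nearest in number carried genes of a single chromosome. For all 27 genes with 1 probe set, that chromosome was the gene's own. For 6 of the 8 genes with several it was another, namely chromosome 14 for Hk1 (a gene of chromosome 10), 12 for Pgk1 (X), 5 for Pkm (9), 19 for Ldhb (6), 12 for Bnip3l (14) and 2 for Ak4 (4). What these probe sets bind was not tested. With the probe set among own-chromosome neighbours, a choice made after the data were seen, Ak4 fell by 1.57, Ldhb by 0.95 and Pkm by 0.45, all past the threshold. Bnip3l was at -0.25 and no longer passed (adjusted p = 0.102), beside a range of 0.00553 to 0.102 over its alternatives and 0.0558 without DKO replicate 3.

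Hk1 and Bnip3 gave probe sets of opposite sign. The Hk1 probe set used here, among the strongest signals on the arrays (percentile 99.6 to 99.7), is tied to the gene by 1 sequence record, against 8 for the other, and 16 further probe sets are annotated to Hk1 together with a ribosomal protein gene. It had 11.63, 11.75 and 11.66 in DKO samples, against 11.93, 11.77 and 11.91 in WT samples, a difference of -0.19 that did not pass. The other Hk1 probe set, among neighbours of chromosome 10, had 8.49, 8.32 and 8.43 in DKO, against 8.18, 7.99 and 8.30 in WT, a difference of 0.26 that did not pass either (adjusted p = 0.129 over all probe sets). Hk1 therefore has no settled direction. For Bnip3 the probe set used has neighbours on the gene's own chromosome 7, while a second one, among neighbours of chromosome 14, rose (7.31, 7.24 and 7.37 in DKO, against 6.61, 6.81 and 6.90 in WT, a difference of 0.53, adjusted p = 0.00693). Pgk1 and Pgam1 each have a pair of probe sets that hold the same values to 3 decimals on all 6 arrays. Another Pgam1 probe set, among neighbours of chromosome 3 while the gene lies on chromosome 19, did fall. Its difference was -0.555, just past the threshold (adjusted p = 0.0488 in the fit of all probe sets).

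**Figure D3:**
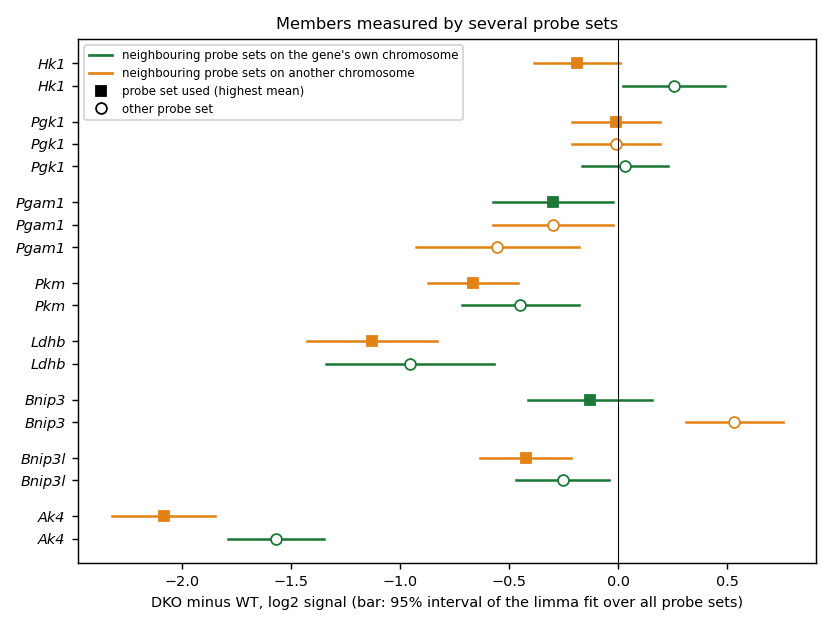
DKO minus WT differences of every probe set of the 8 genes measured by several, with bars for 95% intervals, colour for the chromosome of the neighbouring probe sets and squares for the probe set used. Ak4, Ldhb and Pkm lie left of 0 with each of their probe sets, while Hk1 and Bnip3 have probe sets on either side of 0.

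Members of 1 enzyme or receptor family were set against each other within each array, in 14 pairs, with p-values adjusted over the pairs. The changes differed in 7 pairs. Ldha minus Ldhb was 0.99 (95% interval 0.75 to 1.24, adjusted p = 7.93e-05), Hk2 minus Hk3 was -0.90 (-1.18 to -0.62, 0.000284), and Aldoa minus Aldoc was 0.72 (0.46 to 0.98, 0.000572). These 3 passed in all of their 17 alternatives. Egln1 minus Egln3 was 0.57 (0.23 to 0.90, 0.00852) and Egln2 minus Egln3 was 0.65 (0.40 to 0.89, 0.000598), so Egln3 moved apart from its relatives, and these also passed throughout. Slc2a1 minus Slc2a3 was -0.49 (-0.83 to -0.16, 0.0169), lost without DKO replicate 2 (0.0694) or WT replicate 3 (0.0691), 0.00054 to 0.0694 over its alternatives. Hk1 minus Hk3 was -0.82 (-1.14 to -0.50, 0.000598) and shrank to -0.38 with the own-chromosome Hk1 probe set (0.0148, the highest of its range from 0.000359), with which Hk1 minus Hk2 passed too (0.52, adjusted p = 0.0133, 0.0133 to 0.964 over its alternatives).

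The other pairs did not pass. The intervals were -0.17 to 0.42 for Pfkl minus Pfkm, -0.60 to 0.01 for Pfkl minus Pfkp and -0.92 to 0.07 for Pfkm minus Pfkp, so a smaller change of Pfkp than of the other subunits was not shown. Without WT replicate 2 both pairs with Pfkp passed (-0.41, adjusted p = 0.027, 0.027 to 0.281 over its alternatives, and -0.59, adjusted p = 0.047, 0.047 to 0.405 over its alternatives). For Egln1 minus Egln2 the interval was -0.37 to 0.21, for P4ha1 minus P4ha2 -0.36 to 0.27, and for Bnip3 minus Bnip3l -0.00 to 0.59, a pair that passed with the mean of all probe sets (0.54, adjusted p = 0.00178) and without WT replicate 2 (0.43, 0.00964), 0.00178 to 0.434 over its alternatives.

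**Figure D4:**
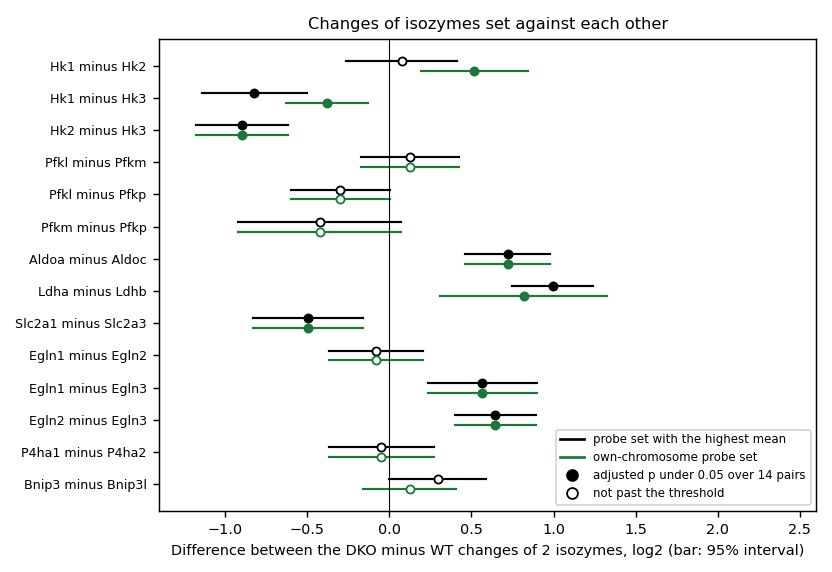
Difference between the DKO minus WT changes of 2 related genes for 14 pairs, with 95% intervals, in black for the probe set with the highest mean and in green for the own-chromosome probe set, and filled points where the adjusted p was under 0.05. Ldha minus Ldhb at 0.99 and Hk2 minus Hk3 at -0.90 lie furthest from 0, and Hk1 minus Hk2 passes with the green setting only.

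Of 37 other glycolysis and pyruvate genes found, 6 rose (16.2%) and 2 fell (5.41%), beside 9.71% and 7.69% of all genes, with a median difference of -0.04. Over the alternatives 3 to 8 rose, with 3 without DKO replicate 3, and 1 to 3 fell. The rises were led by Pfkfb2, another maker of the phosphofructokinase activator (0.72, adjusted p = 0.0108), Adpgk, a glucokinase that uses ADP (0.63, 0.00533), the monocarboxylate transporter gene Slc16a7 (0.60, 0.036) and the phosphoglucomutase family gene Pgm2 (0.55, 0.0126). The falls, named after their values were seen, were those of Bsg, the chaperone of lactate transporters (-0.53, adjusted p = 0.00496), and Pdk4, a relative of Pdk1 (-0.49, 0.047). In the pentose phosphate pathway, the side branch that makes NADPH and ribose, 2 of 9 genes fell (22.2%, beside 7.69% of all genes) and 0 rose. Pgls, its lactonase, had 7.72 ± 0.21 in DKO and 8.94 ± 0.09 in WT (SD, n = 3 each), a 2.33-fold fall (adjusted p = 0.000216), and Rpia, the ribose phosphate isomerase, fell by 0.56 (0.00425).

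Among 34 further hypoxia-induced genes, 4 rose (11.8%) and 2 fell (5.88%), shares close to the 9.71% and 7.69% of all genes, with a median difference of 0.05. The count of rises was 9 with median centring, 7 without the dimmest 25% of genes and 9 without the dimmest 50%, and 3 at the lowest. Ccng2, a cyclin family gene linked to cell cycle arrest, rose 2.08-fold (8.38 ± 0.14 in DKO and 7.33 ± 0.18 in WT, adjusted p = 0.000445), Kdm3a, an oxygen-dependent histone demethylase, 1.8-fold (adjusted p = 0.000459), and Insig2, a regulator of sterol synthesis, 1.6-fold (0.0168). The transcription factor gene Nfil3 fell by 0.65 (0.0107). Kdm4c, a demethylase of the same class as Kdm3a (0.60), and the mitochondrial gene Higd1a (-0.54) complete the calls and were named after their values were seen. A further list held HIF partners, subunits of the Vhl ligase and other ubiquitin enzymes, among them Siah1a and Usp33. Of its 13 genes found, 5 rose (38.5%) and 1 fell (7.69%), beside 9.71% and 7.69% of all genes. Over the alternatives 4 to 5 rose, and the fall was lost in 7 of 18, among them median centring, the replicate block and the removal of any 1 of the DKO samples or of WT replicate 2 or 3. The coactivator gene Ep300 rose by 0.72 (adjusted p = 0.000522), the ubiquitin ligase gene Siah1a, whose product targets Egln proteins, by 0.70 (0.00198), the deubiquitinase gene Usp33 by 0.69 (0.00212) and Cul2, the scaffold of the Vhl ligase, by 0.51 (0.00486). The fall was that of Elob, a subunit of the same ligase (-0.34, 0.0276), and the fifth rise that of the coactivator gene Crebbp (0.37, 0.0214), both named after their values were seen.

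Promoter letters were counted as a description, with no test. RefSeq promoter windows were at hand for 31 of the 35 genes, with 47 windows in all; those of Epas1, Slc2a3, Bnip3l and Ndrg1 were not. ACGTG or GCGTG on either strand stood in at least 1 window of 28 of the 31 genes (90.3%), against 52.3% of 17491 protein-coding genes in the same table. Counted by window it was 80.9% against 49.3%. The list was chosen to hold genes known to be induced by hypoxia, so this excess is no separate result. By call, these were 8 of 10 genes that fell, 3 of 3 that rose and 17 of 18 that did not pass. TGTGGT or TGCGGT, letters that Runx proteins bind, stood in 9 of the 31 genes (29%), against 24.4% of protein-coding genes, and by call in 1 of 10, 1 of 3 and 7 of 18. Counted by window it was 19.1% against 21.6%. The match of both kinds overlapped in 1 window, of Egln2. A match is a description of letters, not a binding site.

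The share of falls was above that of all genes in every way of processing tried. It was lowest without DKO replicate 3, at 14.3% of the 35 genes beside 4.28% of all genes, and between 22.9% and 28.6% with quantile normalization, median centring or cyclic loess, beside 5.62% to 7.75%. With the trend over gene span and signal removed it was 25.7%, beside 7.87%. Without the dimmest 50% of genes it was 31.2% of the 32 genes left, beside a higher 12.7% of all genes. In that setting 12.5% of the 32 rose, below the 20% of all genes. The share of rises lay between 5.71% and 12.5%, and that of all genes between 6.27% and 20%. Only the calls were counted here, and no test of the list as a whole was made.

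**Figure D5:**
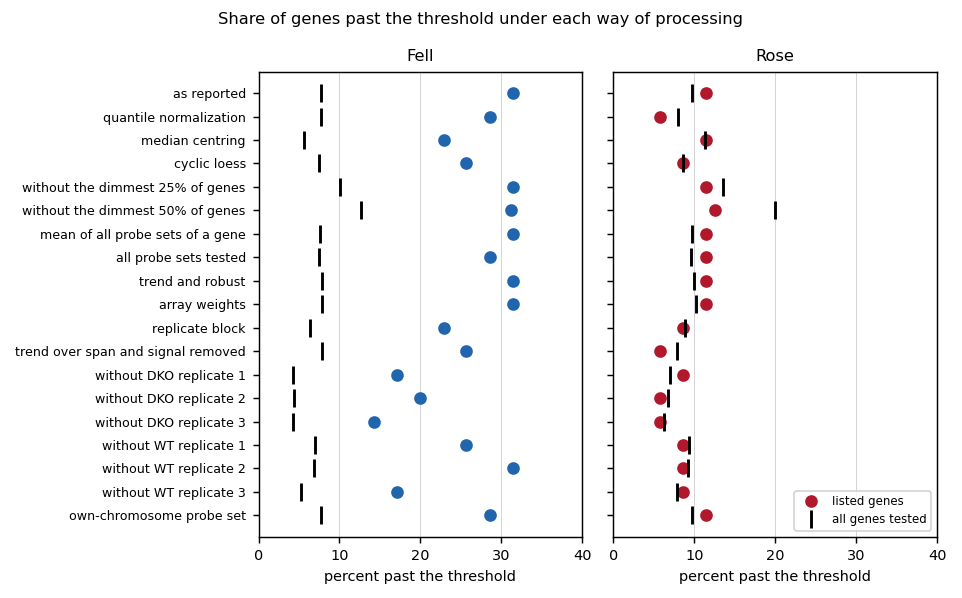
Percent of the 35 genes (coloured points; 32 without the dimmest 50%) and of all genes tested (black bars) that fell or rose, as reported and under 18 alternatives. In the panel of falls each point lies right of its bar, from 14.3% to 31.4%, and in the panel of rises the points and bars lie close together or the bars further right.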

How the data were processed

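RNA of 6 samples of KSL cells was amplified with a NuGEN kit, per the labels' protocols, and hybridised to Affymetrix Mouse Gene 1.0 ST arrays, as the series' design text says. The values are log2 gene-level signals as deposited by the authors. The sample titles name the default gene-level RMA, and the series' design text names preliminary MAS 5.0; values of 1.25 to 13.7 with array medians of 5.88 to 5.91 are those of a log2 scale. The submitters' processing notes name Affymetrix Expression Console 1.0. Neither background settings nor a genome build is given in the sources used here.

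Of 35556 probe sets, 21789 had 1 symbol, 1621 several and 12146 none in the platform annotation; they gave 19938 genes, of which 19856 were matched by Entrez number to the RefSeq table of GRCm38.p6. The deposited values were compared as DKO minus WT with limma 3.58.1 in R 4.3.3 (lmFit, eBayes, two-sided, 5.52 prior and 4 residual degrees of freedom), fitted on all genes with Benjamini-Hochberg adjustment over them and a threshold of 0.05. An exact permutation test of 3 against 3 cannot go below 0.1 and was not used. The script was tested on simulated data. The number of arrays limits the precision, and no 2 arrays were duplicates (smallest SD of a difference 0.276). The labels call the samples biological replicates.

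All genes of the list that were found are given. From the other lists the genes named are at most the 4 past the threshold with the largest difference, and others are marked in the text. The members and lists were chosen with earlier results of these data known. Alternatives covered normalization (quantile, median centring, cyclic loess), removal of dim genes, how probe sets were chosen, trend and robust options of limma, weighted arrays, a block on replicate numbers, removal by a generalised additive model (mgcv 1.9.3) of each array's trend over gene span and signal, and leaving out each sample.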

Additional observations from a re-analysis of the deposited data

How the results depend on the processing

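The 15 called genes kept their sign in all of their alternatives and 6 also their call, while of the 20 others Hk2 and Pgam1 passed in some. The number of the 35 genes that rose was 2 with quantile normalization and 2 after removal of the trend over gene span and signal, against 4 as reported; the cause was not tested. Leaving out 1 sample, which leaves its group with 2, gave 2 to 3 genes that rose and 5 to 11 that fell, and over all genes 1250 to 1868 that rose and 843 to 1388 that fell, beside 1936 and 1533 as reported; over all genes the falls were 843, 876 and 854 without DKO replicates 1, 2 and 3, and the rises 1250 without DKO replicate 3. The median difference of the 35 stayed between -0.21 and -0.09 over 18 alternatives. Same-numbered DKO and WT samples did not deviate together (correlations -0.01, -0.1 and -0.04 over all genes), and no sample correlated best with its own number. These values show no pairing by number, but with 3 arrays in a group they cannot exclude one. With the replicate block 3 of the 35 genes rose and 8 fell, and over all genes 1772 and 1272. Signal near the lower quartile limits the size given for Ak4.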
